A study of Mus musculus with 25 samples.

Results

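The axon guidance ligands and receptors were read in mouse embryos with and without miR-302, at the embryonic stages given below. The families were chosen by gene symbol: the semaphorins of classes 3 to 7, the plexins and neuropilins that bind them, the ephrins and Eph receptors, the Slits and Robos, and the netrins with the receptors neogenin and Unc5. Of these families, 63 genes (95 probes) were on the array. A gene was kept where a probe had a detection p-value under 0.05 on at least 3 arrays, which left 48 genes (65 probes) of the 10261 genes kept in all. Each gene was read by 1 probe, the one with the highest mean signal.

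These proteins steer growing axons and migrating cells by attraction and repulsion. Semaphorins signal through plexins, with neuropilins as co-receptors for the secreted class 3 members, ephrins are membrane-bound ligands of the Eph receptor tyrosine kinases, secreted Slits repel through Robo receptors, and netrins act through the receptors Dcc, neogenin and Unc5. Before axons grow, the same genes act in neural tube closure, in boundaries between brain segments, in the migration of neural crest and in the branching of blood vessels, so the neural tissue of the early embryo expresses many of them outside neurons.

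Each of the 25 samples was read on its own Illumina MouseRef-8 v2.0 bead array, which measures labelled cRNA at gene-specific probes. All embryos were of the B6 strain, and the knockout (KO) embryos were labelled miR-302 KO. Whole embryos were taken at embryonic day 7.5 (E7.5), with 2 wild-type (WT) and 3 KO arrays. Anterior neural tissue was taken at E8.0 (3 KO and 2 WT arrays, with 1 further WT array from a whole embryo), at E8.5 (3 KO and 3 WT) and at E9.5 (4 KO and 4 WT). How the deletion was made is not stated in the labels, and the platform annotation names no probe for miR-302, so the genotype labels were not checked on these arrays. The series design states that replicates were separate embryos.

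Between 10933 and 13612 probes were detected on each array, and replicates correlated at 0.955 to 0.995 across kept probes. Of 14 measured neural progenitor markers, 7 to 12 were detected on each array labelled as neural tissue, and 7 or 8 of 8 markers of primitive blood were detected there too. The E8.0 WT arrays have an uncertain identity. In the raw table the signals under the names of WT replicates 1, 2 and 3 ranked the probes as the detection p-values and the authors' processed values of replicates 3, 1 and 2 did. Names follow the signal columns below, and values of all 3 arrays are printed for each gene called in a KO comparison. By the processed table's order the whole-embryo label would belong to the array called WT replicate 2 here. The tissue markers were mixed and did not settle the label. The array labelled whole embryo had the most neural progenitor markers of the 3, with 13 of 14 detected. Their summed signal was 7392, against 5876 on replicate 2 and 5630 on replicate 3. Its heart and muscle sum was the lowest (954, against 1445 and 7731), and its primitive blood sum was 20054, against 45607 and 18871. Its trophoblast sum was the highest (12555, against 6576 and 4641). So was its neural crest and head mesenchyme sum (5910, against 3597 to 4957). Every E9.5 array was on plate 4 and no other array was, so that stage and plate cannot be told apart.

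The mature 3p strands of miR-302b, miR-302c and miR-302d are shown because the KO label names miR-302. They are credited to RefSeq (GRCm38.p6), read 5′ to 3′, and have bases 2 to 8, the seed that pairs with targets, in capitals. As annotated, miR-302b and miR-302d share the seed AAGUGCU, and miR-302c starts 1 base further along.
mmu-miR-302b-3p, chr3:127545275-127545297, plus strand: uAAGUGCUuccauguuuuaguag
mmu-miR-302c-3p, chr3:127545406-127545427, plus strand: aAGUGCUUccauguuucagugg
mmu-miR-302d-3p, chr3:127545665-127545687, plus strand: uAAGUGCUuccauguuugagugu

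Sema4f and Ephb1 were lower together in the KO at E8.5, and their promoters are shown because RefSeq (GRCm38.p6) lists a single start for each, while it lists 2 for Sema4b and 3 for Sema4d, the other genes lower at that stage. The 250 bases before the start are given 5′ to 3′ on the gene's strand, with matches to CCAAT, the CCAAT box, in capitals.
Sema4f, chr6:82939770-82940019, minus strand: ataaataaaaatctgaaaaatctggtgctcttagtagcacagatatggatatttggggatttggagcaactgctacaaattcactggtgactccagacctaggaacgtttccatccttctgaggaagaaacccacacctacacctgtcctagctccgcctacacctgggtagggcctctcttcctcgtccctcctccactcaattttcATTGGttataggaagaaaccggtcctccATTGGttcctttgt
Ephb1, chr9:102354694-102354943, minus strand: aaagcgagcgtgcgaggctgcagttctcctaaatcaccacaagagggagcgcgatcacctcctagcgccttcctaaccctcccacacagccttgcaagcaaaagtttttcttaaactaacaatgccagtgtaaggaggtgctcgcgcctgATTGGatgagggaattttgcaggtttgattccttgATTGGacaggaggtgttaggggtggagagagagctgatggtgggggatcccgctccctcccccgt
Both strands were searched for TAATCC (an Otx-type homeodomain motif), CAGCTG (an E-box), GGGCGG (a GC box) and, after the sequences had been read, CCAAT, and matches to different motifs did not overlap. Each promoter held 2 matches to CCAAT, all on the opposite strand and read as ATTGG here, and 0 to the other motifs. Of 32851 promoters cut to the same length, 33.8% held CCAAT at least 1 time and 10.1% at least 2 times, while 6.25% held TAATCC, 13% the E-box and 32.7% the GC box. In all, 43 of the 48 genes matched the promoter table by symbol.

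All 48 kept genes are accounted for by family. There were 14 of 18 semaphorins, 4 of 8 plexins, both neuropilins, 6 of 8 ephrins, 11 of 13 Eph receptors, the 3 Slits, the 3 Robos, 2 of 3 netrins and 3 of 5 netrin receptors. Among the 15 genes not kept, Plxna1 was detected on 2 arrays, Unc5a on 1 and the other 13, Ntn1 and Sema3c among them, on 0. Just inside the limit, Epha6 and Slit1 were detected on 3 arrays each. Detection on all 25 arrays was found for genes of each role, among them the ligands Sema3f, Sema4b, Efna5, Efnb1, Slit2 and Ntn3 and the receptors Plxna2, Nrp1, Ephb1, Robo1, Neo1 and Unc5c. A gene such as Efnb2 or Plxnd1, detected on 10 arrays of which 8 were from E9.5, entered through that stage. Sema6c (1 WT and 4 KO arrays) and Slit1 (3 KO arrays) were detected at E9.5 alone. The probe used for Epha3 was detected on 10 arrays, 8 of them from E9.5. Another Epha3 probe was detected on all 3 E8.5 WT arrays and at earlier stages. Counts over kept genes are therefore not counts over the families.

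**Figure D1:**
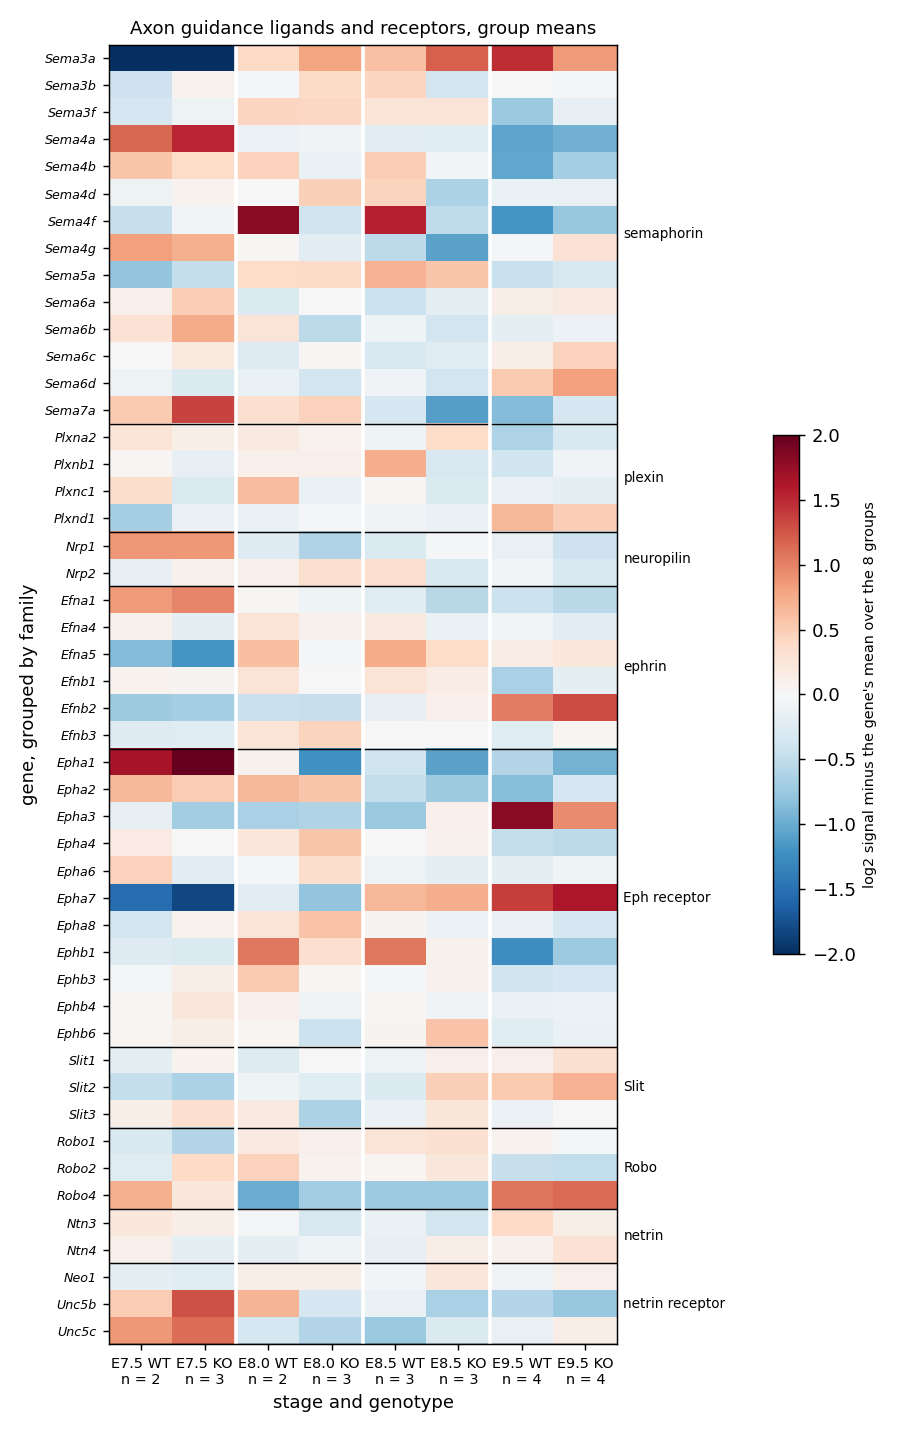
Group means of the 48 genes by stage and genotype (columns, with the number of arrays) and family (rows), as normalized log2 signal minus the gene's own mean over the 8 groups. Sema4f and Ephb1 are high in WT tissue at E8.0 and E8.5 and lower in the KO columns beside them, and Robo4, Epha3 and Efnb2 are high at E9.5 in both genotypes.

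In E8.5 neural tissue, 4 of the 48 genes were lower in the KO and 0 were higher: the membrane-bound class 4 semaphorins Sema4f, Sema4d and Sema4b, and the ephrin-B receptor Ephb1. That is 8.33% of the members, against 5.59% of all 10261 genes changed in either direction, 3.16% higher and 2.44% lower. An unadjusted p under 0.05 (limma) was found for 13 of the 48 and for 2364 of all 10261 genes. The other class 4 semaphorins kept, Sema4a and Sema4g, did not pass, and the Sema4a means were 7.92 in WT and 7.89 in KO tissue. Fewer cells of a type and less RNA per cell cannot be told apart in these samples.

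Sema4f, a transmembrane semaphorin of the nervous system, read 8.13, 7.14 and 7.73 (normalized log2 signal) on the WT arrays and 4.77, 6.44 and 5.60 on the KO arrays. Every KO array was below every WT array, and the gene was above background on only 1 of the 3 KO arrays. The KO tissue had 4.18-fold less signal (log2 difference -2.07, SE 0.40, adjusted p = 0.00612, limma). At E8.0 the arrays had read 8.02 and 7.82 in WT neural tissue (replicates 2 and 3), 8.46 on the WT array labelled whole embryo, and 4.76, 6.50 and 5.89 in the KO. The groups did not overlap there either, and Sema4f was the only 1 of the 48 genes that passed at E8.0, at 4.61-fold less signal (-2.20, SE 0.44, adjusted p = 0.0266). This was 2.08% of the members, against 1.68% of all genes in either direction, 1.17% higher and 0.507% lower. With the array identities of the authors' processed table the E8.0 difference was -2.43 (adjusted p = 0.0336), and with the whole-embryo array added to the WT group -2.39 (adjusted p = 0.0210).

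Ephb1, a receptor for ephrin-B ligands, read 10.72, 10.39 and 10.74 in E8.5 WT tissue and 9.78, 9.26 and 9.92 in the KO. All KO arrays were lower, by 1.95-fold on average (-0.96, SE 0.21, adjusted p = 0.0155). Its E8.0 arrays read 10.58 and 10.65 in WT neural tissue, 10.74 on the whole-embryo array and 9.97, 9.85 and 9.85 in the KO. Those groups were apart as well, although the difference did not pass (-0.72, SE 0.24, adjusted p = 0.110).

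Sema4d, a ligand of plexin B receptors, read 6.70, 6.87 and 6.57 in E8.5 WT tissue and 6.13, 5.08 and 5.69 in the KO. The highest KO array lay below the lowest WT array, and the KO had 2.12-fold less signal (-1.08, SE 0.25, adjusted p = 0.0189). At E8.0 Sema4d read 6.02 and 6.52 in WT neural tissue, 6.60 on the whole-embryo array and 7.20, 6.70 and 6.35 in the KO, with overlap (0.48, adjusted p = 0.342). Sema4b, another transmembrane semaphorin, read 10.40, 10.37 and 10.19 in E8.5 WT tissue and 9.98, 9.67 and 9.69 in the KO. The groups were apart by a smaller step, 1.45-fold (-0.54, SE 0.14, adjusted p = 0.0303). At E8.0 Sema4b read 10.31 and 10.28 in WT neural tissue, 9.96 on the whole-embryo array and 9.5, 9.67 and 9.92 in the KO, and missed the threshold (-0.60, SE 0.15, adjusted p = 0.0525).

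Single arrays and plate bore on these calls. For E8.5, plate 2 held KO replicate 1 with every WT array, while KO replicates 2 and 3 shared plate 3. Within plate 2 the KO arm is that 1 array, assumed to vary like the other groups, so a missed threshold there says little. Sema4f passed (-2.90), and Ephb1 (-0.83, adjusted p = 0.211), Sema4d (-0.59, adjusted p = 0.424) and Sema4b (-0.34, adjusted p = 0.463) did not. Without WT replicate 1 none of the 4 passed, with Sema4f at -1.83, Ephb1 at -0.91, Sema4d at -1.09 and Sema4b at -0.50. Without KO replicate 2, Ephb1 (-0.76), Sema4d (-0.81) and Sema4b (-0.48) were lost, without WT replicate 2 Sema4d (-1.01) and Sema4b (-0.51), and without KO replicate 3 Sema4b (-0.50). The E8.0 call of Sema4f was lost without WT replicate 2 (-2.10), without WT replicate 3 (-2.31) and without KO replicate 1 (-1.73), which also is the value within plate 1, and under median scaling (-1.61).

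**Figure D2:**
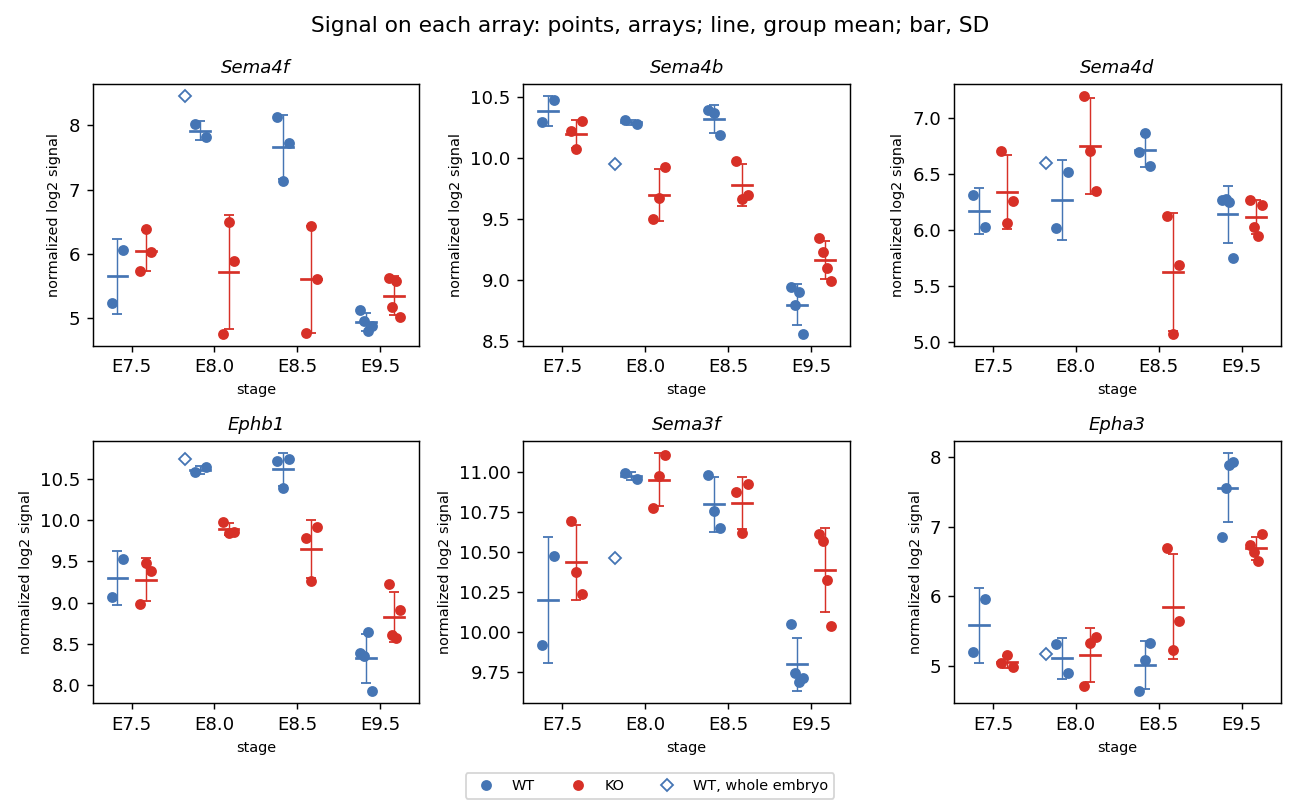
Normalized log2 signal (y axis) on each array by stage (x axis) for the 5 genes that passed a KO test and for Epha3; points are arrays, lines group means, bars SD, blue WT, red KO, and the open diamond the E8.0 WT array labelled whole embryo. At E8.5 all red points of Sema4f, Sema4b, Sema4d and Ephb1 lie below all blue ones, and at E9.5 the 2 genotypes overlap in Sema3f.

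The other ligands and receptors did not pass at E8.5. Of the 14 semaphorins 10 had negative values, with a median of -0.31, where all genes had a median of -0.03 and 5426 of 10261 negative values. The plexin Plxnb1, a Sema4d receptor, was at -1.05 (adjusted p = 0.0801), with WT arrays at 7.23, 7.02 and 7.11 and KO arrays at 6.50, 6.32 and 5.41. The secreted semaphorin Sema3b was at -0.80 (adjusted p = 0.0958) on the probe used and at 0.09 on its other probe. On the positive side all 3 Slits lay between 0.20 and 0.74, led by Slit2, a midline repellent (0.74, adjusted p = 0.0684), which read 8.86, 9.31 and 8.43 in WT tissue and 9.86, 9.72 and 9.25 in the KO. Slit1 was detected on 0 of the WT and 0 of the KO arrays at E8.5, so its value compares background signals. The Slit2 groups overlapped by the highest WT array. The 3 Robo receptors lay between 0.00 and 0.18, and the 6 ephrins between -0.38 and 0.28. Epha3, a receptor for ephrin-A ligands, was read by 3 probes that disagreed. The probe used was at 0.84 (adjusted p = 0.128), another at 0.39, and the remaining one at -1.05, which passed over all kept probes (adjusted p = 0.036).

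Markers of several cell types are given beside the E8.0 and E8.5 results. At E8.5, 10 of 14 neural progenitor markers had negative values (median -0.41) and 1 passed, the forebrain gene Lhx2 (-1.18, adjusted p = 0.0439). Their summed signal overlapped, at 6656 to 7419 on the WT arrays and 4769 to 6979 on the KO arrays. Of 16 early neuron markers 3 passed as higher, Stmn3 (2.43), Neurog2 (1.52) and Neurod4 (1.34), and Stmn2 as lower (-1.40), with sums of 3553 to 4668 in WT and 3505 to 3668 in KO tissue. Surface ectoderm markers were positive in 11 of 13 (median 0.46, Cldn3 passed, sums of 10614 to 14756 and 12168 to 18662), and endothelial markers negative in 12 of 15 (median -0.45, sums of 6976 to 12546 and 7181 to 8362). Of the remaining lists, 1 midbrain marker (Fgf15, 0.92) and 1 epiblast marker (Dnmt3b, -0.69) passed.

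At E8.0 the progenitor sums were 5630 and 5876 in WT neural tissue, 7392 on the array labelled whole embryo and 4108 to 5524 in the KO, with 11 of 14 values negative, 0 passed and 3 at an unadjusted p under 0.05 (limma). Of all 10261 genes, 2035 had an unadjusted p under 0.05 at E8.0 (limma). Trophoblast markers were positive in 9 of 9 (median 0.74, Hand1 passed at 1.40), with sums of 4641 and 6576 in WT neural tissue, 12555 on the array labelled whole embryo and 8311 to 14451 in the KO. Of 11 epiblast markers 9 were positive and Utf1 passed (1.44). The epiblast marker mean was 6.82 to 8.30 in the KO, highest on replicate 1, and 6.74 to 6.98 in WT neural tissue. KO replicate 1 also had the fewest probes detected of all arrays (10933) and the lowest Sema4f signal of E8.0. Of 16 early neuron markers Gap43 (1.30) and Ebf1 (1.03) passed. The part of any of these markers in the semaphorin and Ephb1 differences was not tested.

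In E9.5 neural tissue 1 of the 48 genes passed. Sema3f, a secreted repellent that acts through neuropilin-2, read 10.05, 9.74, 9.69 and 9.72 on the WT arrays and 10.61, 10.57, 10.32 and 10.04 on the KO arrays. The lowest KO array and the highest WT array met, and the mean was 1.5-fold higher in the KO (0.59, SE 0.15, adjusted p = 0.0471). At E8.5 Sema3f read 10.98, 10.76 and 10.65 in WT and 10.87, 10.62 and 10.92 in KO tissue (0.01, adjusted p = 0.983). At E8.0 it read 10.99 and 10.96 in WT neural tissue, 10.46 on the array labelled whole embryo and 10.78, 10.97 and 11.10 in the KO (-0.02, adjusted p = 0.962). Both pairs of groups overlapped. A single call is 2.08% of the members, against 2.23% of all genes in either direction, 1.55% higher and 0.682% lower. The other Sema3f probe was at 0.47 (adjusted p = 0.139), and the call was lost without any 1 of 6 of the 8 arrays, at 0.51 without KO replicate 1, 0.53 without KO replicate 2, 0.61 without KO replicate 3, and 0.57, 0.55 and 0.56 without WT replicates 2, 3 and 4.

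Near the threshold at E9.5, the ephrin Efnb1, a ligand of Eph B receptors, read 9.66, 9.5, 9.52 and 9.46 in WT tissue and 10.10, 9.80, 10.15 and 9.96 in the KO. The groups were apart, but the difference did not pass (0.47, SE 0.13, adjusted p = 0.0656). Epha3 was at -0.87 (adjusted p = 0.111) and read 6.86, 7.56, 7.89 and 7.93 in WT tissue against 6.74, 6.64, 6.50 and 6.89 in the KO, with WT replicate 1 among the KO arrays. Ephb1 was at 0.50 (adjusted p = 0.150), Sema4b at 0.37 (adjusted p = 0.109), Sema4f at 0.41 and Sema4d at -0.02. The E9.5 arrays of Sema4f read 5.12, 4.95, 4.80 and 4.87 in WT and 5.63, 5.18, 5.58 and 5.01 in KO tissue, and those of Sema4d 6.27, 6.28, 6.26 and 5.76 against 6.27, 6.03, 5.95 and 6.23. Sema4b read 8.94, 8.79, 8.90 and 8.56 against 9.34, 9.23, 9.10 and 8.99, without overlap, while the genotypes overlapped in Sema4f and Sema4d. Of the 48 genes 31 had positive values at E9.5 (median 0.10, median of all genes -0.00), among them 11 of 14 semaphorins and all 3 Slits. Slit1 was detected on 3 E9.5 KO arrays alone, so the filter kept it through the group where it was higher. Sema6c likewise was detected on 4 KO arrays and 1 WT array of E9.5 alone. The signs of such genes are no support for a family difference. Markers of the midbrain and its hindbrain border moved at this stage, with 5 of 6 higher in the KO and sums of 5934 to 10095 on the KO arrays against 1989 to 2883 on the WT arrays. Of 14 progenitor markers Hes5 (2.15) and Hes3 (1.90) were higher and Six3 (-0.90) lower. Among 16 early neuron markers Neurog2 (1.44) and Dll1 (1.13) were higher. Surface ectoderm markers were negative in 12 of 13 and neural crest and head mesenchyme markers in 11 of 12, with 0 passed in either list. Endothelial markers were negative in 11 of 15, and Fli1 passed (-0.68). The part of any of these markers in the Sema3f difference was not tested.

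In whole embryos at E7.5, 0 of the 48 genes passed (limma), against 0.224% of all genes (0.175% higher, 0.0487% lower). The unadjusted p (limma) was under 0.05 for 4 of the 48 and for 818 of all 10261 genes. The smallest adjusted p belonged to Robo2, a Slit receptor, which read 5.32 and 5.73 on the WT arrays and 6.24, 5.95 and 6.30 on the KO arrays (0.64, SE 0.19, adjusted p = 0.277). Next were the plexin Plxnc1, a Sema7a receptor (-0.64, adjusted p = 0.481), and Epha6 (-0.67, adjusted p = 0.582), each detected on 1 of the 5 arrays of that stage. Of the families, 11 of 14 semaphorins had positive values, with a median of 0.27, where all genes had a median of 0.00 and 5161 of 10261 positive values. The largest value was 0.83 for Sema7a, the membrane-anchored semaphorin. At that stage Sema3a and Sema6c were detected on 0 arrays, and Sema3b and Sema6a on 1 KO array each. Their values largely compare background signals, and the signs of such genes are no support for a family difference. The 5 genes called at later stages overlapped between genotypes at E7.5. Sema4f read 5.24 and 6.06 in WT and 5.74, 6.38 and 6.03 in KO embryos, Ephb1 9.07 and 9.53 against 8.98, 9.48 and 9.38, and Sema4d 6.32 and 6.03 against 6.70, 6.06 and 6.26. Sema4b read 10.30 and 10.48 against 10.22, 10.07 and 10.30, and Sema3f 9.92 and 10.48 against 10.69, 10.38 and 10.24. The groups of 2 and 3 arrays limit the precision here.

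**Figure D3:**
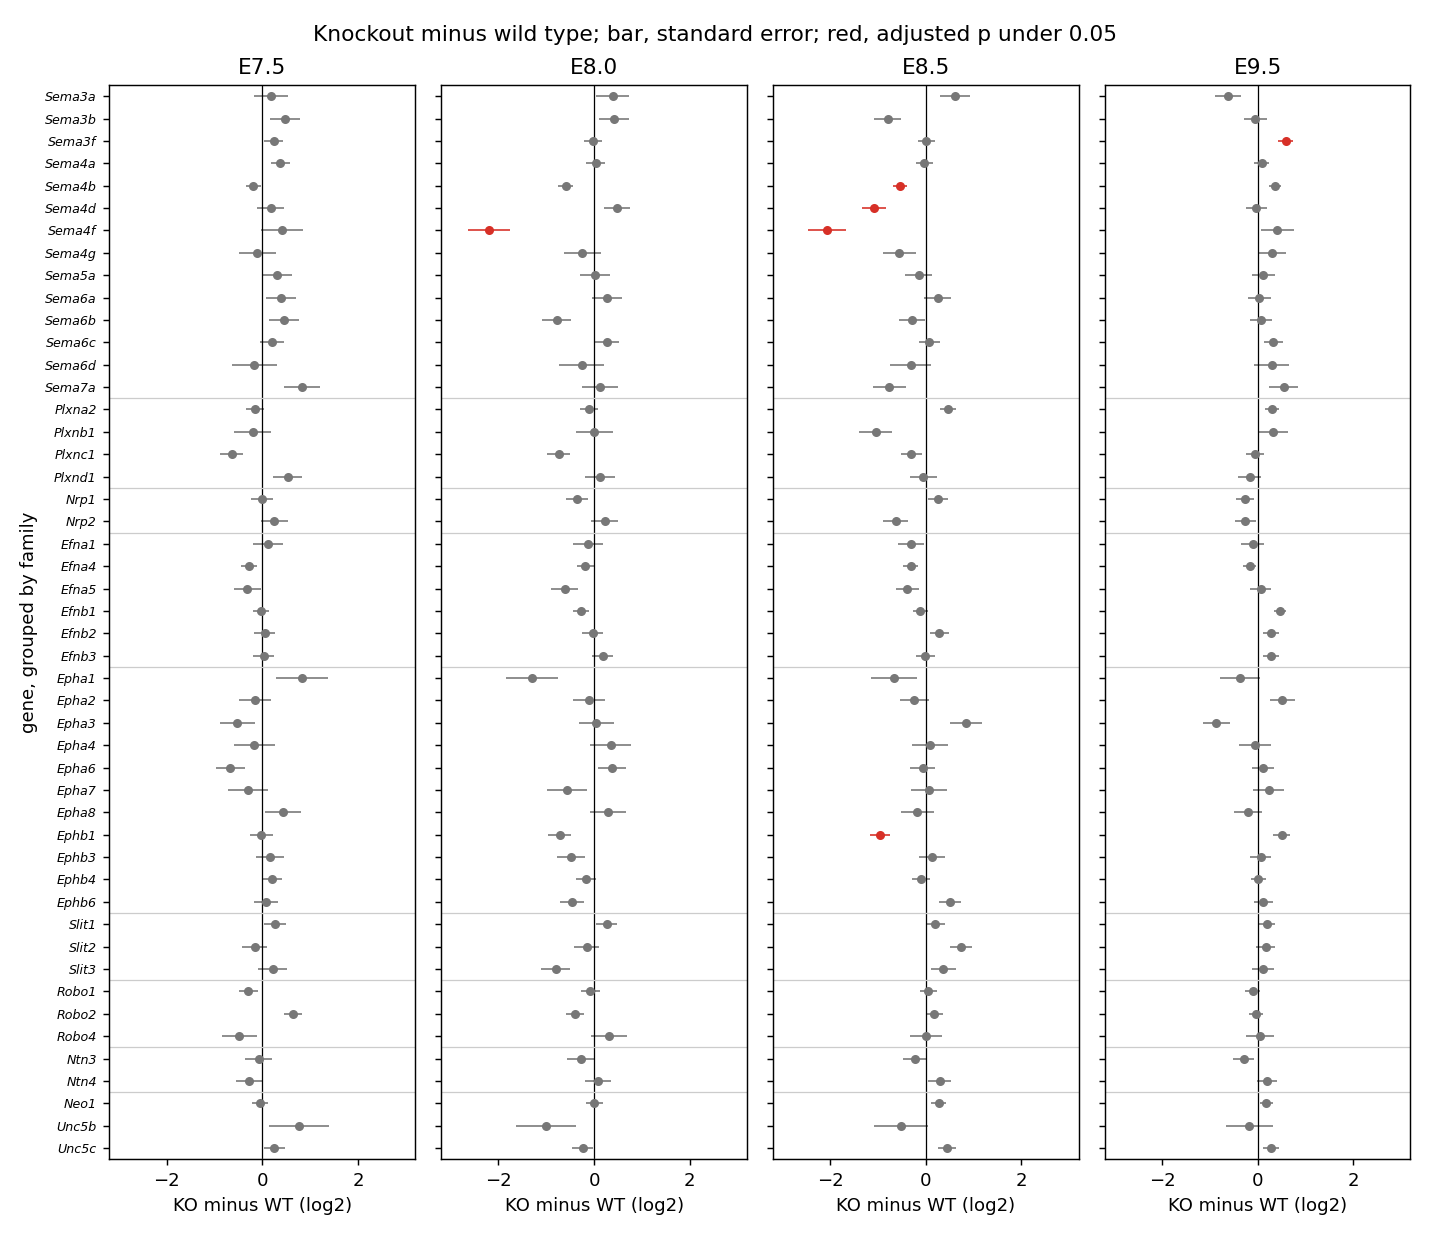
KO minus WT log2 difference (x axes) of each of the 48 genes (y axis, by family) at E7.5, E8.0, E8.5 and E9.5; bars are standard errors and red marks an adjusted p under 0.05. Red points are Sema4f at E8.0, Sema4f, Sema4b, Sema4d and Ephb1 at E8.5, all to the left of 0, and Sema3f at E9.5, to the right.

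Between E8.5 and E9.5 the families shifted in WT neural tissue, with 7 of the 48 genes higher and 11 lower at E9.5. That is 37.5% of the members, against 41.9% of all genes, of which 18.9% rose and 22.9% fell. The median was -0.19 for the members and -0.07 for all genes. When arrays were scaled to a common median in place of quantiles, the median of all genes moved to 0.42. The members' calls became 16 higher and 5 lower, so directions are relative to the whole array. The share of all genes called under that scaling is not given here, so these counts are not read as particular to the members. The largest falls kept their call under every alternative run: Sema4f, Ephb1 and Sema4b.

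Among the ligands, Sema4f went from 8.13, 7.14 and 7.73 at E8.5 to 5.12, 4.95, 4.80 and 4.87 at E9.5, where it was not well above background on any WT array. The fall was at least 4.82-fold (-2.73, SE 0.37, adjusted p = 1.04e-05). Sema4b went from 10.40, 10.37 and 10.19 to 8.94, 8.79, 8.90 and 8.56, without overlap (2.88-fold, -1.52, adjusted p = 6.75e-08). Sema5a, a semaphorin with thrombospondin repeats, fell 2.20-fold (-1.14, adjusted p = 0.00176), Sema3f 2.00-fold (-1.0, adjusted p = 7.6e-05) and Sema4a 1.79-fold (-0.84). The other probes of Sema5a (-0.97) and Sema3f (-0.78) also fell. Efnb1 fell 1.88-fold (-0.91, adjusted p = 4.47e-05) and Efna5, a repellent of topographic maps, 1.52-fold (-0.61, adjusted p = 0.0434).

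The ligands that rose were fewer. Efnb2, the ephrin of arteries and of the hindbrain, read 5.03, 5.30 and 5.09 at E8.5, not well above background, and 6.75, 6.34, 6.35 and 5.91 at E9.5, at least 1.51-fold higher (1.20, SE 0.18, adjusted p = 3.48e-05). All E9.5 arrays were above all E8.5 arrays. Sema3a, a secreted repellent that binds neuropilin-1, rose 1.85-fold from 7.93, 8.39 and 8.69 to 9.55, 8.90, 9.15 and 9.31 (0.89, adjusted p = 0.0196), and the groups were apart. Slit2 rose 1.74-fold (0.80, SE 0.22, adjusted p = 0.00596). The netrins Ntn3 (0.54) and Ntn4 (0.24) did not pass.

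Among the receptors, Ephb1 went from 10.72, 10.39 and 10.74 to 8.39, 8.35, 8.64 and 7.92, a 4.89-fold fall (-2.29, SE 0.20, adjusted p = 8.65e-08). No E9.5 array came near the E8.5 range. The plexins Plxnb1 (2.19-fold, -1.13, adjusted p = 0.00833) and Plxna2 (1.43-fold, -0.52) and the Slit receptor Robo2 (1.42-fold, -0.51) fell too, with Plxna2 at 0.21 under median scaling. Robo4, the Robo of endothelium, went from 6.32, 6.99 and 5.92 to 8.24, 8.08, 8.36 and 8.18, a 3.49-fold rise (1.80, SE 0.31, adjusted p = 0.000128), while its other probe was at 0.29 (adjusted p = 0.361). On the probe used, Epha3 went from 4.64, 5.08 and 5.33, not well above background, to 6.86, 7.56, 7.89 and 7.93. That rise was at least 3.53-fold (2.55, SE 0.31, adjusted p = 2.73e-06). The other Epha3 probes were at -0.04 and 0.52 and did not pass, and 1 of them was detected on all 3 E8.5 WT arrays. The netrin receptor Unc5c rose 1.51-fold (0.60, adjusted p = 0.0112), and Plxnd1, a plexin of developing vessels, at least 1.12-fold (0.73, adjusted p = 0.0289). Plxnd1, like Efnb2, was kept through its E9.5 arrays, so the filter favoured a rise at that stage.

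Under median scaling the falls of Plxnb1 (-0.51), Sema5a (-0.37), Sema3f (-0.34), Efnb1 (-0.23), Sema4a (-0.06) and Efna5 (-0.04) did not pass. Single arrays decided 6 of these WT calls. Efna5 lost its call without E8.5 WT replicate 1 (-0.56) or 2 (-0.52) and without E9.5 WT replicate 2 (-0.60), 3 (-0.58) or 4 (-0.54). Plxnd1 lost its call without E8.5 WT replicate 2 (0.66) or 3 (0.71) and without E9.5 WT replicate 1 (0.65) or 3 (0.72), Sema3a without E8.5 WT replicate 1 (0.69) or E9.5 WT replicate 1 (0.78), Robo2 without E8.5 WT replicate 1 (-0.45) or 2 (-0.45), and Slit2 (0.58) and Plxna2 (-0.46) without E8.5 WT replicate 3. Markers of other cells changed in both directions beside these genes. Of 6 midbrain and isthmus markers 5 fell (median -1.76), with sums of 7095 to 7907 at E8.5 and 1989 to 2883 at E9.5. Of 8 primitive blood markers 6 rose (median 1.37), with sums of 15385 to 50366 and 74945 to 79986. Of 15 endothelial markers 5 rose and 1 fell (median 0.58), Pecam1 (1.35), Tie1 (1.41) and Tek (1.20) among those that rose, with sums of 6976 to 12546 at E8.5 and 10853 to 11637 at E9.5. Of 16 early neuron markers 12 rose, with sums of 3553 to 4668 and 6916 to 9095, and of 12 neural crest and head mesenchyme markers 8 rose, with sums of 3835 to 5521 and 9309 to 10215. The part of any of these in the members' changes, the falls of Sema4f, Ephb1 and Sema4b and the rises of Robo4, Plxnd1, Efnb2 and Epha3 included, was not tested.

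In KO neural tissue, read on other arrays, 6 of the 48 genes rose and 7 fell between E8.5 and E9.5, 27.1% of the members against 34.1% of all genes (15.5% higher, 18.6% lower). Of the calls, 9 were made in both genotypes and in the same direction, which is 50% of the 18 WT calls and 69.2% of the 13 KO calls. Over all genes 2173 were called in both, 50.6% of the WT calls and 62.0% of the KO calls, so the members' shares were near those of all genes. The shared rises were Robo4, Efnb2 and Epha3, and the shared falls Sema4a, Sema4b, Sema5a, Plxna2, Ephb1 and Robo2.

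Robo4 read 6.56, 6.87 and 5.81 at E8.5 and 8.27, 8.02, 8.87 and 7.93 at E9.5 in the KO, 3.63-fold higher (1.86, SE 0.31, adjusted p = 0.000176), and its other probe did not pass (0.43). Efnb2 rose 2.30-fold (1.20, adjusted p = 6.45e-05), from 5.19, 5.86 and 5.22 to 6.60, 6.29, 6.80 and 6.82, without overlap. Sema4g, a class 4 semaphorin, read 4.96, 6.24 and 4.90 and then 6.64, 6.39, 7.56 and 6.32, without overlap, and rose 2.56-fold (1.36, adjusted p = 0.00325). Sema6d, a transmembrane ligand of plexin A1, rose 2.31-fold (1.21, adjusted p = 0.0245). The other rises were Sema6c (0.71), with no fold because it was not well above background on any E8.5 KO array, and Epha3 (1.79-fold, 0.84, adjusted p = 0.0398), whose E8.5 KO arrays of 6.69, 5.22 and 5.65 overlapped those of E9.5. Sema6c was detected at E9.5 alone, on 1 WT and 4 KO arrays, so the filter favoured a rise there.

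Ephb1 fell 1.77-fold in the KO (-0.82, adjusted p = 0.00347), from 9.78, 9.26 and 9.92 to 9.23, 8.61, 8.57 and 8.91, and Sema4b 1.53-fold (-0.62, adjusted p = 0.00119). Both sets of arrays were apart. Sema5a (1.83-fold), Robo2 (1.65-fold), Sema4a (1.65-fold), Ephb6, an Eph receptor without kinase activity (1.62-fold), and Plxna2 (1.60-fold) completed the falls. Under median scaling the median of all genes was 0.56 and the members' calls were 22 higher and 3 lower. The share of all genes called under that scaling is not given here either. Sema4b (0.30), Sema4a (0.26), Plxna2 (0.18), Ephb1 (0.12) and Sema5a (0.11) were then positive and did not pass. Leaving out 1 array ended the call of Epha3 without E8.5 KO replicates 2 (0.52) or 3 (0.74) or E9.5 KO replicates 1 (0.82), 2 (0.86) or 4 (0.77), of Sema6d without E8.5 KO replicates 2 (1.09) or 3 (1.22) or E9.5 KO replicate 3 (0.97), of Ephb6 without E8.5 KO replicates 2 (-0.54) or 3 (-0.65), of Sema6c without E8.5 KO replicate 1 (0.55) and of Sema5a without E8.5 KO replicate 3 (-0.78). Endothelial markers rose here too, 7 of 15 (median 0.88), and their part in the Robo4 change was not tested.

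**Figure D4:**
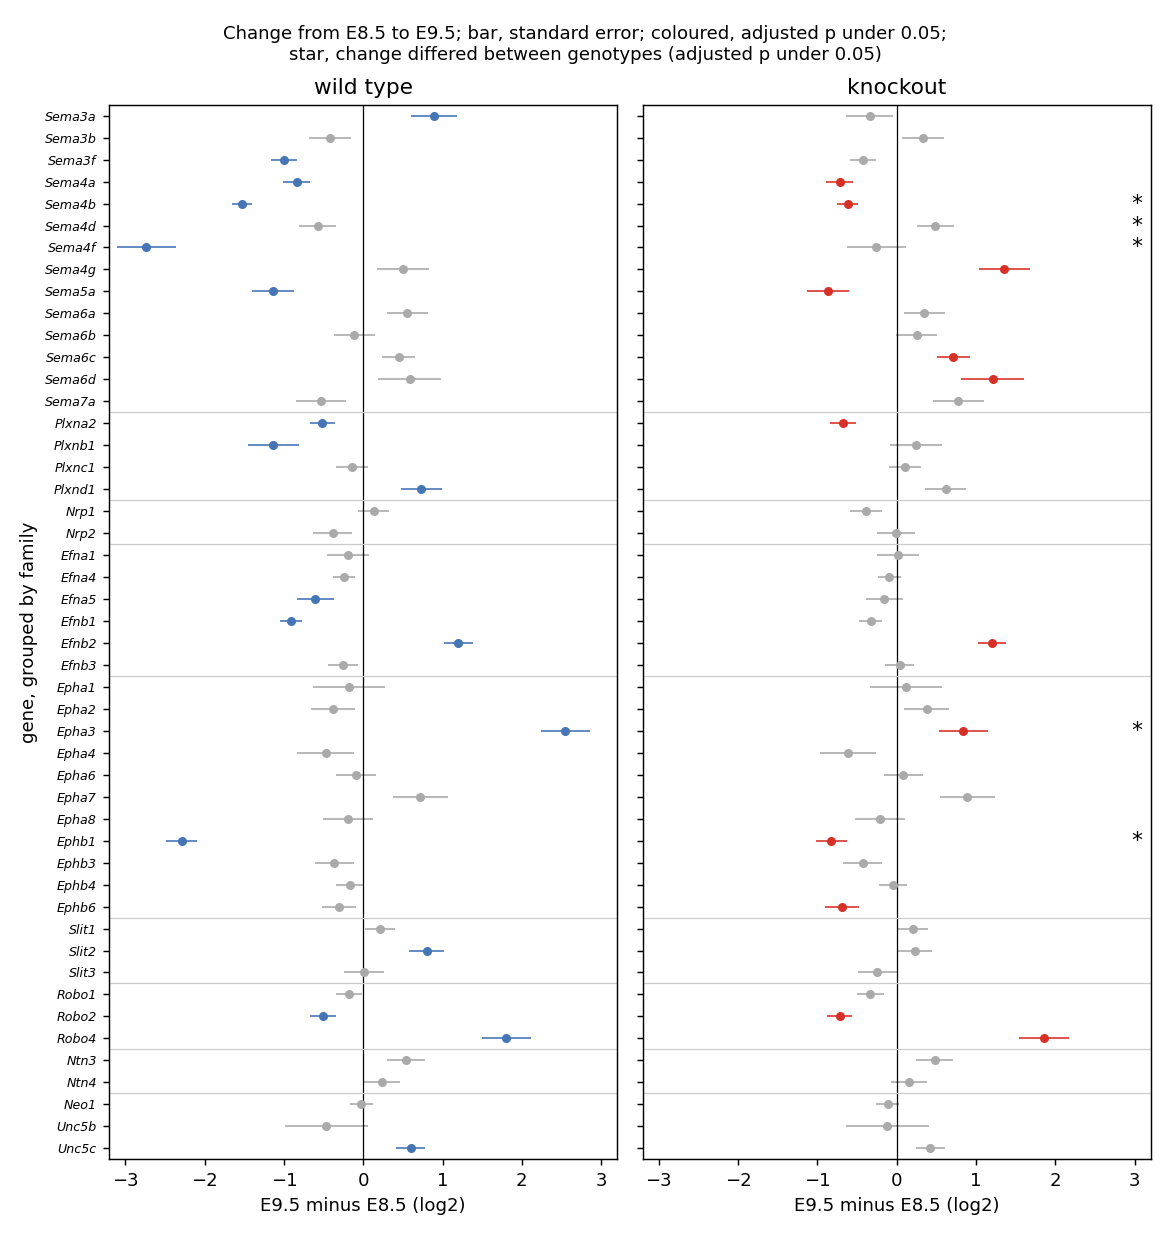
Log2 change from E8.5 to E9.5 (x axes) of the 48 genes (y axis, by family) in WT (left) and KO (right) neural tissue; bars are standard errors, colour marks an adjusted p under 0.05, and stars mark genes whose change differed between genotypes. Sema4f, Ephb1 and Sema4b sit far left in WT tissue and nearer 0 in the KO, and Epha3 sits furthest right in WT tissue.

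The KO effect itself differed between E8.5 and E9.5 for 5 of the 48 genes, tested as the difference of both KO minus WT contrasts. This was 10.4% of the members and 10.1% of all genes, of which 4.33% were more positive at E9.5 and 5.77% more negative. Both contrasts share arrays with the stage changes above. The effect was more positive at E9.5 for Ephb1, by 1.47 (SE 0.28, adjusted p = 0.00599), from -0.96 to 0.50. Sema4b moved by 0.91 (SE 0.18, adjusted p = 0.00755) and Sema4f by 2.48 (SE 0.52, adjusted p = 0.01). For Sema4f the WT signal at E9.5 had left the detected range, which bounds the E9.5 side. Sema4d moved by 1.06 (adjusted p = 0.0476), a call lost in 19 of 23 alternatives, of which 12 each left out 1 of the 14 arrays (0.78 to 1.13). Epha3 moved the other way, by -1.71 (SE 0.43, adjusted p = 0.0199), from 0.84 to -0.87 on the probe used, and its other probes gave 0.47 and -0.72 without passing. The Epha3 call was lost without E8.5 WT replicate 1 (-1.52) or E9.5 WT replicate 4 (-1.58). With plate as a covariate Ephb1 (1.34, adjusted p = 0.0565) and Sema4b (0.71, adjusted p = 0.0829) missed the threshold, and Sema4f (3.31) and Epha3 (-2.55) did not. Midbrain and isthmus markers moved in this contrast too, with 4 of 6 more positive at E9.5 (median 1.70), and their change from E8.5 to E9.5 had a median of -1.76 in WT and -0.27 in KO tissue. Of 14 progenitor markers 3 were more positive, and of 13 surface ectoderm markers 4 were more negative (median -0.86). Their part in the members' differences was not tested.

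Between E8.0 and E8.5, 0 of the 48 genes passed in WT neural tissue (limma), where 0.039% of all genes did. The unadjusted p (limma) was under 0.05 for 4 of the 48 and for 695 of all 10261 genes. The smallest adjusted p belonged to Epha2, an Eph receptor of epithelia and early embryonic cells (-1.14, adjusted p = 0.271), Plxnc1 (-0.59, adjusted p = 0.570) and Robo2 (-0.42, adjusted p = 0.7). In the KO 5 passed, 2 higher and 3 lower, 10.4% of the members against 3.23% of all genes (1.03% higher, 2.19% lower). Sema7a fell 2.95-fold, from 7.60, 6.93 and 6.49 to 5.10, 5.56 and 5.68 (-1.56, SE 0.34, adjusted p = 0.0154). Epha2 fell 2.42-fold (-1.28, adjusted p = 0.0236), from 7.94, 6.99 and 6.33 to 6.18, 5.67 and 5.58, and Sema4d 2.18-fold (-1.12, adjusted p = 0.0173). Neither Sema7a nor Epha2 overlapped between stages.

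Epha7, a receptor of the neural folds, rose 2.87-fold, from 4.71, 6.04 and 6.40 to 7.63, 7.25 and 6.83 (1.52, SE 0.37, adjusted p = 0.0293), while its other probes were at 0.03 and 0.18. Ephb6 rose at least 1.12-fold (0.99, adjusted p = 0.0211). The highest Sema7a, Epha2 and Sema4d signals and the lowest Epha7 signal of E8.0 were those of KO replicate 1, the array with the fewest probes detected and with the highest epiblast marker mean of the E8.0 neural arrays, 8.30 where the lowest of them had 6.74. Without that array all 5 missed the threshold, with Sema7a at -1.26, Epha2 at -0.85, Sema4d at -0.90, Epha7 at 1.02 and Ephb6 at 0.83. Without E8.5 KO replicate 2, Sema4d (-0.84), Epha2 (-1.21), Epha7 (1.52) and Ephb6 (0.84) were lost, without E8.5 KO replicate 3 Epha2 (-1.16) and Ephb6 (0.95), and without E8.5 KO replicate 1 Epha7 (1.32). The difference of the KO effects of E8.5 and E8.0 passed for 0 of the 48 genes (limma), against 0.127% of all genes (0.0487% more positive at E8.5, 0.078% more negative). Its unadjusted p (limma) was under 0.05 for 9 of the 48 and for 957 of all 10261 genes. The smallest adjusted p were those of Sema4d (-1.57, adjusted p = 0.136), Slit3 (1.17, adjusted p = 0.347) and Sema3b (-1.22, adjusted p = 0.355).

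Co-receptors, adhesion partners and cytoplasmic effectors of these pathways were read beside the members, 44 of a list of 63 being measured. In the KO at E8.0 the growth cone protein Gap43 (1.30, adjusted p = 0.0176) and the actin regulator Evl (1.16, adjusted p = 0.0376) were higher and 0 were lower, 2 of the 44 where 1.17% of all genes were higher. At E8.5 0 of the 44 passed (limma), where 5.59% of all genes did. An unadjusted p under 0.05 (limma) was found for 10 of the 44 and for 2364 of all 10261 genes. At E9.5 the repulsive guidance molecule Rgma (1.01, adjusted p = 0.0245), the chemokine receptor Cxcr4 (0.80, adjusted p = 0.00665) and the collapsin response mediator Dpysl5 (0.77, adjusted p = 0.000904) were higher and the adhesion protein Flrt3 (-0.61, adjusted p = 0.0371) lower, where 1.55% of all genes were higher and 0.682% lower. From E8.5 to E9.5, 10 rose and 6 fell in WT tissue and 13 rose and 2 fell in the KO, Gap43 by 2.23 and 2.25. Of all genes 18.9% rose and 22.9% fell in WT tissue, and 15.5% rose and 18.6% fell in the KO. The KO effect was more positive at E9.5 than at E8.5 for 7 of the 44, Rgma (1.63) and Rgmb (1.35) with the largest values, and more negative for 0, where 4.33% of all genes were more positive and 5.77% more negative. The median was 0.27 for the list and 0.04 for all genes.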

How the data were processed

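Signals came from 25 Illumina MouseRef-8 v2.0 arrays of mouse embryos. The authors deposited a raw table holding, per the file headers, an average intensity and a detection p-value for each probe and array, and a second table of processed intensity values, which served as an alternative. The sources used here do not give the steps behind the second table. Its E7.5 to E8.5 arrays share 1 distribution and its E9.5 arrays another, so stages were not compared in it.

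The raw intensities were corrected with normexp, using the detection p-values, quantile normalized with an offset of 16 and put on the log2 scale (neqc, limma 3.58.1, statmod 1.5.0, R 4.3.3). For the E8.0 WT replicates, each signal was used with the detection p-value column that ranks the probes alike. A probe needed a detection p-value under 0.05 on 3 arrays, and each gene kept its brightest probe. limma's lmFit and eBayes fitted 9 groups over all arrays, and p-values were adjusted by Benjamini-Hochberg over 10261 genes, with 0.05 as the threshold. The spread is pooled over groups, and the number of arrays limits the precision. Stage contrasts, KO contrasts and their differences share arrays. A difference where the dimmer group was not well above background is given as "at least", against the lowest detected signal. Gene names are those of the platform annotation.

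Members and gene lists were chosen with earlier results of these data known. Every kept member could be named. Members that passed a KO test have their value on every array given. Other normalizations, filters, plate and replicate terms and left-out arrays were tried.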

Additional observations from a re-analysis of the deposited data

Results flagged for a closer look

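On the E9.5 WT arrays, 6 genes had 1 array apart from the other 3, by the gap to its neighbour as a share of the group's range (Dixon's test). These were 6 of 96 groups of 4 arrays tested, the 48 genes in each genotype, and chance gives about 5 in 100. All 6 were WT groups, and no KO group was among them. WT replicate 1 was high for Sema3f (share 0.854, at 10.05 against 9.69 to 9.74), the gene called at that stage, and low for Sema6a (0.8999, at 4.94 against 5.40 to 5.45) and Epha4 (0.833, at 5.11 against 5.52 to 5.61). The Sema6a and Epha4 values on that array lie under its lowest detected signal, 5.38. WT replicate 4 was low for Sema4d (0.951, at 5.76 against 6.26 to 6.28) and high for Epha8 (0.886, at 6.16 against 5.59 to 5.66). WT replicate 2 was high for Sema5a (0.861, at 8.74 against 8.01 to 8.11).

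The KO effect differed between E8.5 and E9.5, by limma's test of the difference, for Ephb1 (1.47), Sema4b (0.91), Sema4f (2.48), Sema4d (1.06) and Epha3 (-1.71, log2, E9.5 minus E8.5).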

How the results depend on the processing

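Over the 47 pairs of a gene and a comparison that passed, 769 values under alternatives kept the call in 614 cases, lost it in 149 and turned the direction in 6. The counts of 0 at E7.5 and for WT E8.5 against E8.0 held in all 18 and 17 alternatives. The cause of the changes below was not tested, except that fewer arrays leave less power. The counts below are of the members alone. Counts over all genes under each alternative are not given, so a change is not read as particular to the members.

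Of the 48 genes, the E8.0 KO comparison called 1, and 2 without background correction, 2 with the stricter filter, 0 with median scaling, 0 without the E9.5 arrays, 0 with the replicate block, 0 with that stage fitted alone, 0 within plate 1 and 0 to 3 with 1 array left out. At E8.5 it called 4, and 2 without the E9.5 arrays, 2 with plate as a covariate (1 higher, 1 lower), 2 with plate as a random block, 0 with that stage alone, 1 within plate 2 and 0 to 5 with 1 array left out. At E9.5 it called 1, and 3 without background correction, 4 with median scaling, 0 with no filter, 0 with each probe tested singly, 0 with the replicate block, 3 in the authors' processed values and 0 to 3 with 1 array left out. From E8.5 to E9.5 the WT count of 18 (7 higher, 11 lower) became 10 with plate as a random block and 15 to 18 with 1 array left out, and under median scaling 21 (16 higher, 5 lower). The KO count of 13 (6 higher, 7 lower) became 25 (22 higher, 3 lower) under median scaling, 8 with plate as a random block and 9 to 16 with 1 array left out. From E8.0 to E8.5 the KO count of 5 became 2 without background correction, 0 with median scaling, 0 without the E9.5 arrays and 0 to 6 with 1 array left out. The difference of KO effects between E9.5 and E8.5 (5) became 2 with plate as a covariate, 3 with the replicate block and 3 to 7 with 1 array left out, and that between E8.5 and E8.0 (0) 0 to 1. Median scaling turned the E8.5 to E9.5 direction of Plxna2 (0.21 in WT, 0.18 in KO) and, in the KO, of Sema4b (0.30), Sema4a (0.26), Ephb1 (0.12) and Sema5a (0.11).

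After each gene's group mean was taken off, same-numbered WT and KO arrays of a stage correlated at -0.13 to 0.16. The numbers were therefore not taken as pairs. In the smallest groups these remainders constrain one another, so the check is weak there. Pairing the detection columns as their headers name them was tried after seeing the data. Plate as a covariate was not run for the E8.5 to E9.5 changes or the E9.5 KO comparison, since E9.5 was 1 plate of its own.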

Other observations

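The E8.0 WT array labelled whole embryo was kept out of the WT group, except in the alternatives for array identity and for adding that array. Its label is uncertain, as said above. The genes below are examples, set beside the other arrays without a test. On the array labelled whole embryo Robo1, a Slit receptor, read 11.56, against 10.61 and 10.90 on the E8.0 WT arrays labelled neural tissue. Efnb2 read 6.2 on it, against 4.83 and 4.92. Sema3f read 10.46, against 10.99 and 10.96.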
